A study of Mus musculus with 24 samples.

Results

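The genes described here encode 4 parts of an uptake machinery and 2 proteases: Lrp2, Cubn, Amn, Dab2, Ctsh and Ctsl. They are 6 of the 19938 genes that had a probe set with 1 gene symbol on these arrays. Each was taken as the brightest of the probe sets annotated to its symbol alone. Visceral endoderm is the polarised epithelium that covers the early mouse embryo and feeds it by taking up maternal protein and lipid. Megalin (Lrp2) and cubilin (Cubn) are its large apical receptors, amnionless (Amn) anchors cubilin in the membrane and carries it to the surface, and the adaptor Dab2 links megalin to the clathrin coat. The cargo is broken down in lysosomes, where the cysteine proteases cathepsin H (Ctsh) and cathepsin L (Ctsl) work.

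RNA came from D3 cells, an established mouse embryonic stem cell line, in 8 groups of 3 arrays that the labels call biological replicates. The siPRMT1 cells carried a knockdown of Prmt1, the main enzyme for asymmetric arginine dimethylation, and the siSCR cells a scrambled sequence. Both lines were measured undifferentiated, as embryoid bodies (aggregates grown without the cytokine LIF) on day 4, and as embryoid bodies given the vehicle DMSO or all-trans retinoic acid (ATRA, 5 micromol) for 12 h. All cells had been passaged on gelatin to remove feeder cells and grown in serum. Whether the knockdown was transient or stable, and whether a line was 1 clone or a pool, was not stated in the sources used. Nothing says that the replicates came from separate cultures, so p-values measure the spread between these arrays, which may be technical.

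Values below are log2 intensities. A difference is a log2 fold change with its standard error from limma, fitted to all 24 arrays, and a gene was called at a Benjamini-Hochberg adjusted p under 0.05 over 19938 genes. The number of arrays limits the precision, and the median standard error over all genes was 0.0932. Prmt1 itself averaged 9.67 to 10.41 in the 4 siPRMT1 groups and 10.93 to 11.56 in the 4 siSCR groups. The lines were closest at day 4, with 10.30 in siPRMT1 and 10.93 in siSCR. They averaged 9.67 and 11.04 in undifferentiated cells, 10.41 and 11.53 with DMSO, and 10.12 and 11.56 with ATRA. The 6 siSCR arrays of DMSO and ATRA stood apart from the other 18. On a first component that held 52.2% of the variance they scored 50.1 to 61.2, and the others -26.8 to -9.44. A siPRMT1 against siSCR comparison with DMSO or ATRA cannot be made without these 6 arrays, so what set them apart and the knockdown cannot be told apart there. In DMSO against untreated embryoid bodies of siSCR, what set them apart and the vehicle cannot be told apart either. Between these groups most genes were called.

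In RefSeq (build GRCm38.p6) the genes lie at chr2:69424335-69586029 (Lrp2), chr2:13276338-13491876 (Cubn), chr12:111271096-111276426 (Amn), chr15:6299788-6440715 (Dab2), chr9:90054267-90076095 (Ctsh) and chr13:64361890-64370772 (Ctsl). Promoter sequence was available for 5 of the 6 genes, with 2 start sites for Dab2. The 250 bases before the start are shown for the 3 genes of the receptor complex, which rose together in embryoid bodies. Capitals mark matches to the motifs searched on both strands.
Lrp2, chr2:69586030-69586279, minus strand: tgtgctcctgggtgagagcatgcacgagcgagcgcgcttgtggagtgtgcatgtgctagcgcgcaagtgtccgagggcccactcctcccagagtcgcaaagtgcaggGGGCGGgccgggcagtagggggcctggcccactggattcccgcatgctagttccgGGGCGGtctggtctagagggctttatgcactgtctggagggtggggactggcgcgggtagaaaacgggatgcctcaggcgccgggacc
Cubn, chr2:13491877-13492126, minus strand: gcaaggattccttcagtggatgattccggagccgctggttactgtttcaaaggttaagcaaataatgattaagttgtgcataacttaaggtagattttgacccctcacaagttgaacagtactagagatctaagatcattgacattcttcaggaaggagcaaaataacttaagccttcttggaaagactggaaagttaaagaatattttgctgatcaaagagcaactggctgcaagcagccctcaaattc
Amn, chr12:111270846-111271095, plus strand: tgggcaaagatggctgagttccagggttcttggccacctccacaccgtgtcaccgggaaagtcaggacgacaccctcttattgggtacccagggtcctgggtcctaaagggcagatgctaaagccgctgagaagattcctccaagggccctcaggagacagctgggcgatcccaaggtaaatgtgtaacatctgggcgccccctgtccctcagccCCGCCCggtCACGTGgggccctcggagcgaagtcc
The 5 motifs were CACGTG (bound by TFEB and other basic helix-loop-helix factors), GATAA (GATA factors), GGGCGG (the GC box), TGTTTAC (forkhead factors) and AGGTCA (a nuclear receptor element). No match overlapped another.

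The 3 windows had little in common by this measure. Lrp2 held GGGCGG 143 and 88 bases upstream, a motif present in 32.7% of all 32851 promoter windows of this length. Amn held GGGCGG on the opposite strand, printed as CCGCCC, 35 bases upstream and CACGTG 26 bases upstream, and CACGTG was present in 6.02% of all windows. Cubn held none of the 5 motifs. CG dinucleotides numbered 18 in the Lrp2 window, 11 in Amn and 2 in Cubn, against a median of 6 over all windows. Of the windows not shown, that of Ctsl (chr13:64370521-64370770, minus strand) lay inside the gene span given above, before an internal start. It held CACGTG 236 bases before that start, so this match is not upstream of the whole gene. The upstream start of Dab2 held GATAA 178 bases upstream, a motif of 22.6% of windows, and its other start held none. TGTTTAC (3.17% of windows) and AGGTCA (14%) were in no window of these genes.

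All 6 genes rose when embryoid bodies formed, in both lines, and the receptors and Ctsh rose far more than Ctsl. In siPRMT1 6 of 6 were called higher at day 4 than in undifferentiated cells, where 23.0% of all genes were (41.4% in either direction), and the median change was 2.22 against -0.04 over all genes. In siSCR 6 of 6 were called higher, against 14.5% of all genes (28.2% in either direction), with a median of 1.90 and 0.00067 over all genes. In both lines the 3 day 4 arrays lay above the 3 undifferentiated arrays for every one of the 6. These are bulk RNA levels, so more cells of a type and more RNA per cell cannot be told apart.

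Lrp2 moved most. In siPRMT1 its 3 arrays read 8.16, 8.24 and 7.96 in undifferentiated cells, 12.33, 12.33 and 12.25 at day 4, 12.31, 12.33 and 12.31 with DMSO, and 12.02, 12.08 and 11.94 with ATRA. In siSCR they read 8.28, 8.19 and 8.30 in undifferentiated cells, 11.64, 11.81 and 11.71 at day 4, 11.80, 11.61 and 11.55 with DMSO, and 11.40, 11.36 and 11.08 with ATRA. The lines thus overlapped before differentiation, and every siPRMT1 embryoid body array lay above every siSCR one. At day 4 Lrp2 rose 18.1-fold in siPRMT1 (4.18 ± 0.08, limma adjusted p = 2.21e-18) and 11.0-fold in siSCR (3.46 ± 0.08, adjusted p = 6.3e-17). Among 19938 genes these changes ranked 2 from the top in siPRMT1 and 1 in siSCR. In order of level, siPRMT1 with DMSO and at day 4 overlapped, as did siSCR at day 4 and with DMSO, while both ATRA groups lay below the day 4 and DMSO groups of their line.

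Before differentiation the Cubn arrays of siPRMT1 lay above those of siSCR, but that call depended on single arrays (adjusted p up to 0.152 without 1 array). In siPRMT1 it read 10.54, 10.75 and 10.34 in undifferentiated cells, 13.11, 13.13 and 13.13 at day 4, 13.15, 13.10 and 13.19 with DMSO, and 13.01, 13.09 and 12.94 with ATRA. In siSCR it read 10.27, 10.22 and 10.18 in undifferentiated cells, 12.49, 12.63 and 12.61 at day 4, 12.28, 12.03 and 12.09 with DMSO, and 11.96, 11.93 and 11.58 with ATRA. Of neighbouring groups in the order of level, siPRMT1 with DMSO and siPRMT1 at day 4 overlapped and all others were apart. Cubn rose 5.97-fold at day 4 in siPRMT1 (2.58 ± 0.10, limma adjusted p = 1.79e-14) and 5.10-fold in siSCR (2.35 ± 0.10, adjusted p = 9.54e-14).

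Amn showed the same rise but a different order with ATRA. In siPRMT1 it read 8.99, 8.90 and 8.84 in undifferentiated cells, 10.83, 10.83 and 10.65 at day 4, 10.92, 10.99 and 10.89 with DMSO, and 10.39, 10.40 and 10.52 with ATRA. In siSCR it read 8.58, 8.61 and 8.53 in undifferentiated cells, 9.89, 10.14 and 10.00 at day 4, 10.11, 10.14 and 10.34 with DMSO, and 10.49, 10.30 and 10.49 with ATRA. The ATRA arrays of the lines overlapped, whereas the lines were apart in the other 3 states. Amn rose 3.63-fold at day 4 in siPRMT1 (1.86 ± 0.08, limma adjusted p = 1.1e-13) and 2.71-fold in siSCR (1.44 ± 0.08, adjusted p = 6.88e-12). The siSCR groups of ATRA and DMSO overlapped, as did those of DMSO and day 4.

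Dab2 overlapped between the lines before differentiation and was apart afterwards. In siPRMT1 it read 11.19, 11.29 and 11.16 in undifferentiated cells, 13.00, 13.07 and 13.06 at day 4, 13.15, 13.03 and 13.15 with DMSO, and 12.97, 12.95 and 12.82 with ATRA. In siSCR it read 11.36, 11.24 and 11.24 in undifferentiated cells, 12.51, 12.65 and 12.66 at day 4, 12.65, 12.36 and 12.54 with DMSO, and 11.84, 11.95 and 11.91 with ATRA. The lowest of all embryoid body groups was siSCR with ATRA. Dab2 rose 3.56-fold at day 4 in siPRMT1 (1.83 ± 0.07, limma adjusted p = 2.97e-14) and 2.51-fold in siSCR (1.33 ± 0.07, adjusted p = 5.29e-12). A second Dab2 probe set, annotated through a single clone, had group means of 4.16 to 4.49, near the low end of the scale of 2.14 to 14.6. It was used only in the alternative that takes the mean of probe sets.

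The proteases differed in size of change. Ctsh read 7.93, 7.64 and 7.48 in undifferentiated siPRMT1 cells, 10.65, 10.79 and 10.89 at day 4, 11.12, 11.12 and 11.32 with DMSO, and 10.78, 10.76 and 10.59 with ATRA. In siSCR it read 7.25, 7.04 and 7.00 in undifferentiated cells, 10.04, 10.15 and 10.22 at day 4, 10.20, 10.04 and 10.26 with DMSO, and 10.15, 9.69 and 9.61 with ATRA. The lines were apart in all 4 states. The rise at day 4 was 8.54-fold in siPRMT1 (3.09 ± 0.13, limma adjusted p = 7.02e-14) and 8.24-fold in siSCR (3.04 ± 0.13, adjusted p = 1.25e-13). In order of level, siPRMT1 at day 4 and with ATRA overlapped, and so did the siSCR groups of DMSO, day 4 and ATRA.

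Ctsl was bright in every group and moved little. In siPRMT1 it read 12.78, 12.72 and 12.73 in undifferentiated cells, 13.26, 13.28 and 13.22 at day 4, 13.36, 13.32 and 13.38 with DMSO, and 13.24, 13.24 and 13.12 with ATRA. In siSCR it read 12.93, 12.87 and 12.93 in undifferentiated cells, 13.03, 13.09 and 13.11 at day 4, 13.30, 13.19 and 13.21 with DMSO, and 13.11, 13.03 and 13.08 with ATRA. The siPRMT1 arrays were the lower ones before differentiation and the higher ones at day 4. Ctsl rose 1.43-fold at day 4 in siPRMT1 (0.51 ± 0.05, limma adjusted p = 3.58e-08) and 1.12-fold in siSCR (0.16 ± 0.05, adjusted p = 0.014). The siSCR call was lost when only the groups compared were fitted (adjusted p = 0.0728) and without siSCR undifferentiated replicate 2 or day 4 replicate 3 (adjusted p up to 0.0679).

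**Figure D1:**
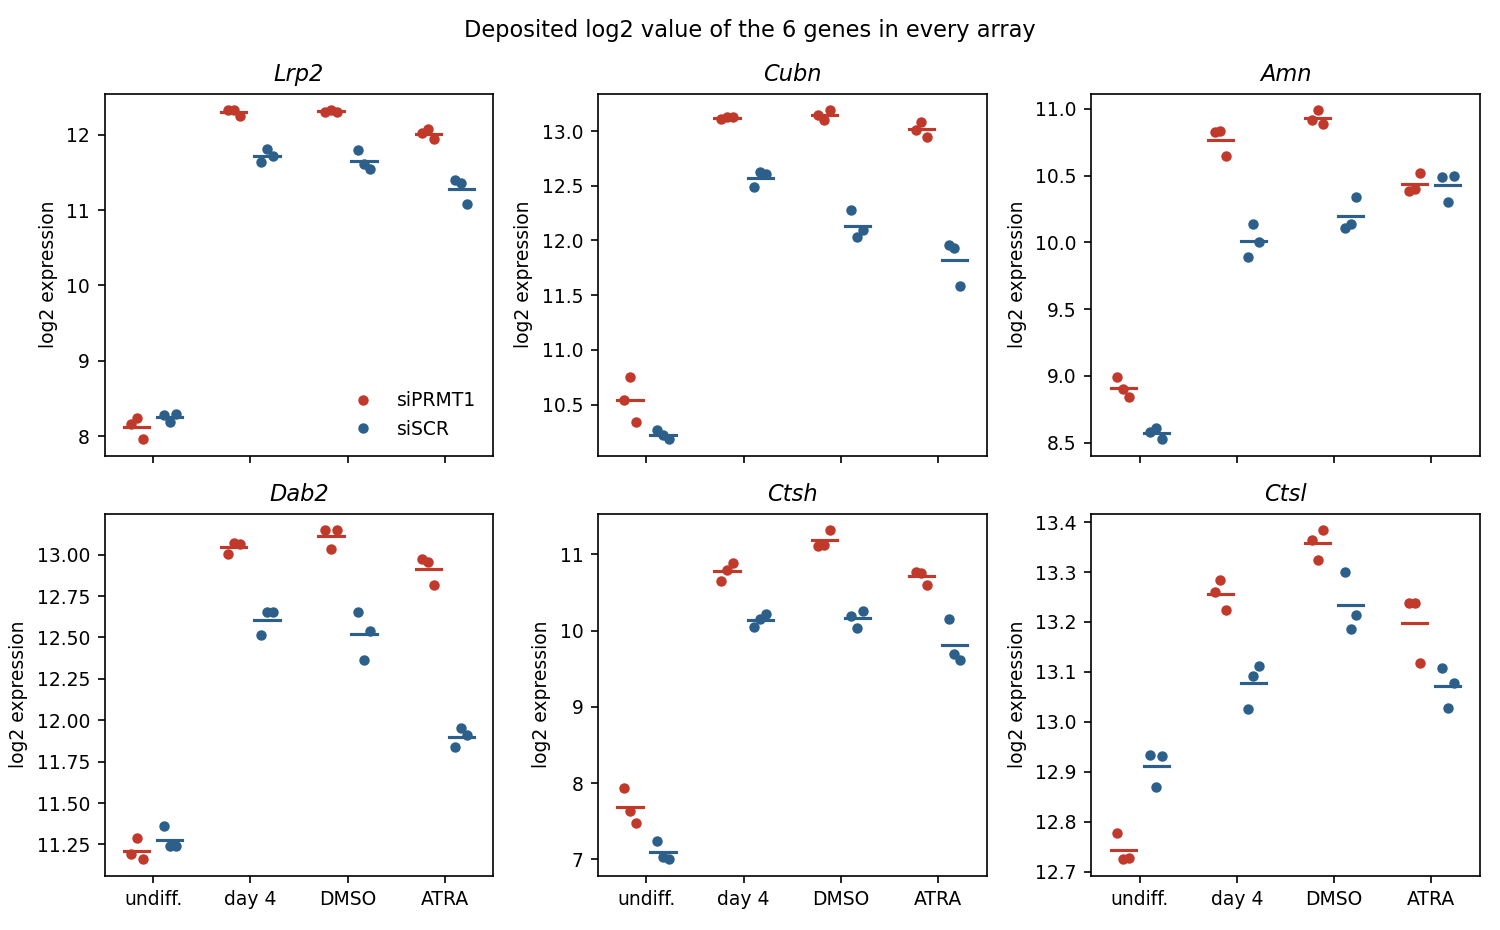
Log2 value of the 6 genes in every array, in the order undifferentiated, day 4, DMSO and ATRA, siPRMT1 left of siSCR, with points for the 3 arrays of a group and a bar at the group mean; each panel has its own axis. Lrp2 lies between 7.96 and 8.30 in all undifferentiated arrays and between 11.08 and 12.33 in all embryoid body arrays.

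The rise at day 4 was larger in siPRMT1 than in siSCR for 4 genes. Tested as an interaction, the extra change was called for 4 of 6, all higher, against 15.0% of all genes. It was 0.72 ± 0.12 for Lrp2 (limma adjusted p = 0.000142), 0.51 ± 0.10 for Dab2 (adjusted p = 0.000707), 0.42 ± 0.11 for Amn (adjusted p = 0.00756) and 0.35 ± 0.07 for Ctsl (adjusted p = 0.000803). Cubn and Ctsh were not called. Their extra change was 0.23 for Cubn, with a 95% interval of -0.05 to 0.51, and 0.05 for Ctsh, with one of -0.32 to 0.42. Both intervals include 0 and leave room for a rise. This test shares its arrays with the comparisons within a line. With every array scaled to 1 SD the calls of Amn (0.30, adjusted p = 0.0754) and Ctsl (0.16, adjusted p = 0.158) were lost.

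**Figure D2:**
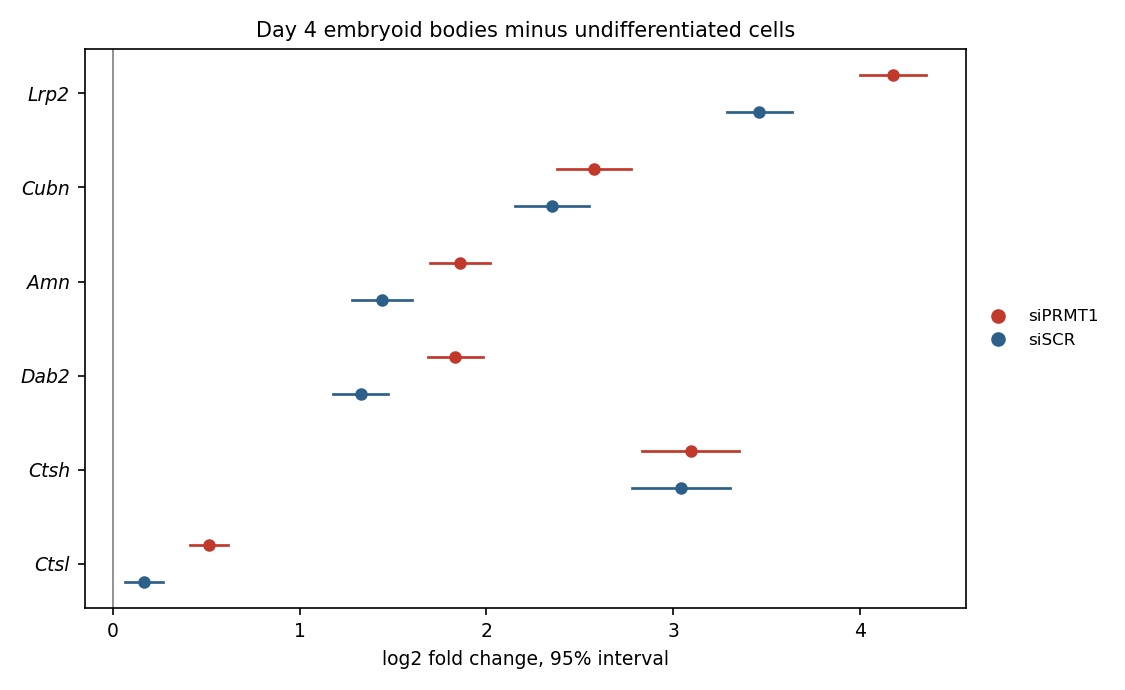
Log2 fold change of day 4 embryoid bodies over undifferentiated cells for the 6 genes, siPRMT1 above siSCR, with 95% intervals from the limma fit. Lrp2 reaches 4.18 in siPRMT1 and 3.46 in siSCR, and the intervals of the lines overlap for Cubn and Ctsh.

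Against siSCR, the siPRMT1 embryoid bodies held more RNA of the uptake genes, while undifferentiated cells were mixed. At day 4 6 of 6 were called higher, against 11.4% of all genes called higher and 7.01% lower, with a median of 0.56 against -0.02 over all genes. Amn led with 1.69-fold (0.76 ± 0.08, limma adjusted p = 5.74e-07). Ctsh was 1.56-fold higher (0.64 ± 0.13, adjusted p = 0.000914), Lrp2 1.49-fold (0.58 ± 0.08, adjusted p = 4.53e-05), Cubn 1.46-fold (0.55 ± 0.10, adjusted p = 0.000295) and Dab2 1.36-fold (0.44 ± 0.07, adjusted p = 0.000124). Ctsl was 1.13-fold higher (0.18 ± 0.05, adjusted p = 0.0131). Only the Ctsl call was lost under an alternative: with only the groups compared (adjusted p = 0.0509), with arrays scaled to 1 SD (0.08, adjusted p = 0.395), and without siSCR day 4 replicate 1 or siPRMT1 day 4 replicate 2 (adjusted p up to 0.0595).

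Before differentiation the receptors did not move together. In undifferentiated siPRMT1 cells 3 genes were called higher than in siSCR, against 7.63% of all genes, and 1 lower, against 11.2% (18.8% in either direction), with a median of 0.13 and 0.0061 over all genes. Ctsh was higher by 0.59 ± 0.13 (limma adjusted p = 0.00185), Amn by 0.34 ± 0.08 (adjusted p = 0.00319) and Cubn by 0.32 ± 0.10 (adjusted p = 0.0209). Ctsl fell by 0.17 ± 0.05 (adjusted p = 0.0176). Lrp2 differed by -0.14, with a 95% interval of -0.31 to 0.04, and Dab2 by -0.07, with one of -0.21 to 0.08. The Cubn and Ctsl calls rest on single arrays: Cubn lost its call without siPRMT1 replicate 1 or 2 or siSCR replicate 2 or 3 (adjusted p up to 0.152), and Ctsl without siPRMT1 replicate 2 or 3 or siSCR replicate 1 or 3 (adjusted p up to 0.0659). Both were also lost with only the groups compared (adjusted p = 0.0762 for Cubn and 0.0705 for Ctsl), and Ctsl with median centring (adjusted p = 0.121) and 1 SD scaling (adjusted p = 0.364).

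Fibroblast and feeder markers moved with the line in these cells. Their mean log2 level was 9.41 to 9.48 in undifferentiated siPRMT1 arrays and 9.79 to 9.83 in siSCR arrays. Of 14, 9 were called lower and 0 higher, against 11.2% and 7.63% of all genes. At day 4 their mean level was 8.46 to 8.48 in siPRMT1 and 8.69 to 8.83 in siSCR. There 8 of 14 were called lower, against 7.01% of all genes. As embryoid bodies formed, 13 of 14 were called lower in siPRMT1 and 11 in siSCR, both with a median of -0.92. Of all genes 18.4% and 13.7% were called lower. Their part in the results for the 6 genes was not tested.

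With DMSO and with ATRA most of the 6 were again higher in siPRMT1, in comparisons that use the 6 siSCR arrays that stand apart. With DMSO 6 of 6 were called higher, against 31.3% of all genes (65.9% in either direction). The differences were 1.02 ± 0.13 for Ctsh (limma adjusted p = 4.88e-07), 1.01 ± 0.10 for Cubn (adjusted p = 1.01e-08), 0.74 ± 0.08 for Amn (adjusted p = 5.07e-08), 0.66 ± 0.08 for Lrp2 (adjusted p = 8.27e-07) and 0.59 ± 0.07 for Dab2 (adjusted p = 3.09e-07). Ctsl was higher by 0.12 ± 0.05 (adjusted p = 0.0318), but was lower with arrays scaled to 1 SD (-0.44, adjusted p = 5.63e-07), and under that scaling Dab2 lost its call (0.07, adjusted p = 0.428). Medians were 0.70 over the 6 genes and -0.09 over all genes.

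With ATRA 5 of 6 were called higher in siPRMT1, against 32.2% of all genes called higher and 38.0% lower (70.1% in all), and Amn did not differ by the test. Cubn was higher by 1.19 ± 0.10 (limma adjusted p = 7.4e-10), Dab2 by 1.01 ± 0.07 (adjusted p = 7.83e-11), Ctsh by 0.89 ± 0.13 (adjusted p = 2.85e-06) and Lrp2 by 0.73 ± 0.08 (adjusted p = 1.76e-07). Ctsl was higher by 0.13 ± 0.05 (adjusted p = 0.0266), and lower with arrays scaled to 1 SD (-0.52, adjusted p = 5.83e-08). Amn differed by 0.0038, with a 95% interval of -0.16 to 0.17, and was called lower after quantile normalization (-0.30, adjusted p = 0.00376) and 1 SD scaling (-0.33, adjusted p = 0.00154). The Ctsl calls of the DMSO and ATRA comparisons were also lost under other settings and without single arrays, with adjusted p up to 0.109 and 0.103 without 1 array. The DMSO call was lost without siPRMT1 replicate 1 or 3 or siSCR replicate 2 or 3, and the ATRA call without siPRMT1 replicate 1 or 2 or siSCR replicate 2.

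**Figure D3:**
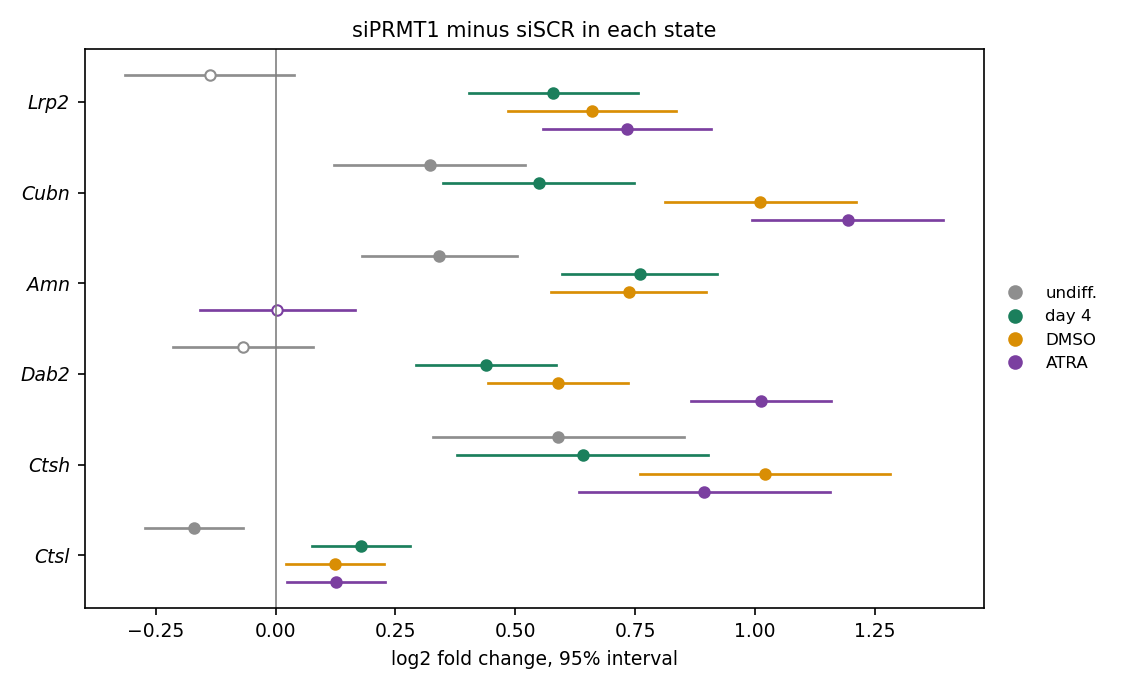
Log2 fold change of siPRMT1 over siSCR for the 6 genes in undifferentiated cells, at day 4, with DMSO and with ATRA, with 95% intervals; filled points were called and open ones were not. At day 4 all 6 lie above 0, from 0.18 for Ctsl to 0.76 for Amn, and Ctsl with DMSO and ATRA turns negative when arrays are scaled to 1 SD.

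After 12 h of ATRA most of the 6 genes were slightly lower than with DMSO, and Amn in siSCR was not. In siPRMT1 4 genes were called lower, against 5.94% of all genes, and 0 higher, against 6.05%, with a median of -0.25 against 0.03 over all genes. Amn fell by 0.50 ± 0.08 (limma adjusted p = 9.59e-05), Ctsh by 0.48 ± 0.13 (adjusted p = 0.0137), Lrp2 by 0.30 ± 0.08 (adjusted p = 0.0203) and Ctsl by 0.16 ± 0.05 (adjusted p = 0.0365). Dab2 differed by -0.20 (adjusted p = 0.0793) and Cubn by -0.13 (adjusted p = 0.476). In all 6 the 3 ATRA arrays of siPRMT1 lay below its 3 DMSO arrays. Calls were lost for Lrp2 without any 1 DMSO array or ATRA replicate 1 or 3 of siPRMT1 (adjusted p up to 0.0969), for Ctsl without any 1 DMSO array or ATRA replicate 3 (up to 0.203), and for Ctsh without replicate 3 of either group (up to 0.0829). Ctsl also lost its call with only the groups compared (limma adjusted p = 0.0861), quantile normalization (0.113) and 1 SD scaling (0.157), and Lrp2 with 1 SD scaling (0.0502). Dab2 was called without siSCR DMSO replicate 2, and without the 6 siSCR arrays that stand apart (adjusted p = 0.0303). It was also called with median centring (0.0344), a trend and robust variance (0.0195) and array weights (0.000597).

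In siSCR 5 genes were called lower with ATRA, against 12.2% of all genes, and Amn higher, against 11.2% (23.4% in either direction). Dab2 fell by 0.62 ± 0.07 (limma adjusted p = 2.2e-06), Lrp2 by 0.37 ± 0.08 (adjusted p = 0.00322), Ctsh by 0.35 ± 0.13 (adjusted p = 0.0489), Cubn by 0.31 ± 0.10 (adjusted p = 0.0224) and Ctsl by 0.16 ± 0.05 (adjusted p = 0.0212). Amn was higher by 0.24 ± 0.08 (adjusted p = 0.0326), although its arrays overlapped, as did those of Ctsh. With only the groups compared just Dab2 kept its call. The Ctsh call was lost without any 1 of 18 of the 24 arrays (adjusted p up to 0.195). Single arrays also decided Amn (siSCR DMSO replicate 1 or 2, ATRA replicate 1 or 3, adjusted p up to 0.116), Cubn (DMSO replicate 1, ATRA replicate 3, up to 0.131) and Ctsl (DMSO replicate 1, ATRA replicate 2, up to 0.0887).

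The response of 2 genes differed between the lines, in a test that uses the 6 siSCR arrays that stand apart. The part of what set those arrays apart in this difference was not tested. The interaction was called for Amn (-0.73 ± 0.11, limma adjusted p = 0.000605) and Dab2 (0.42 ± 0.10, adjusted p = 0.0217), against 3.24% of all genes called, 1.92% higher and 1.32% lower. Amn was lower with ATRA in siPRMT1 and higher in siSCR, and Dab2 differed by -0.20 in siPRMT1 and by -0.62 in siSCR. The Dab2 call was lost with only the groups compared (adjusted p = 0.147), with the mean of its probe sets (0.16, adjusted p = 0.367) and without siPRMT1 DMSO replicate 2, siPRMT1 ATRA replicate 1 or 2, or siSCR DMSO replicate 1 (adjusted p up to 0.0751). That mean includes the second Dab2 probe set, which read near the low end of the scale. Of 15 visceral endoderm markers, 5 were called lower with ATRA and 1 higher in siPRMT1, against 5.94% of all genes lower and 6.05% higher, and 4 lower and 1 higher in siSCR, against 12.2% and 11.2%. Of 10 parietal endoderm markers 2 were called lower in siPRMT1 and 5 in siSCR, and of 10 pluripotency markers 4 were lower and 1 higher in each line. Hnf4a, a transcription factor of this tissue, fell in both lines, by 0.58 ± 0.07 in siPRMT1 (adjusted p = 2.09e-06) and by 0.53 ± 0.07 in siSCR (adjusted p = 8.09e-06). Gata6, another such factor, was the 1 called higher in each line. It rose by 0.45 ± 0.05 in siPRMT1 (limma adjusted p = 4.02e-06) and by 0.50 ± 0.05 in siSCR (adjusted p = 1.44e-06). The signalling antagonist Cer1 fell by 2.64 ± 0.18 in siPRMT1 (adjusted p = 1.25e-09). In siSCR Cer1 differed by -0.0026 and was not called, but its mean with DMSO was only 6.82 there, against 6.37 in undifferentiated siSCR cells. The other four genes had interactions of -0.13 to 0.18 that were not called.

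**Figure D4:**
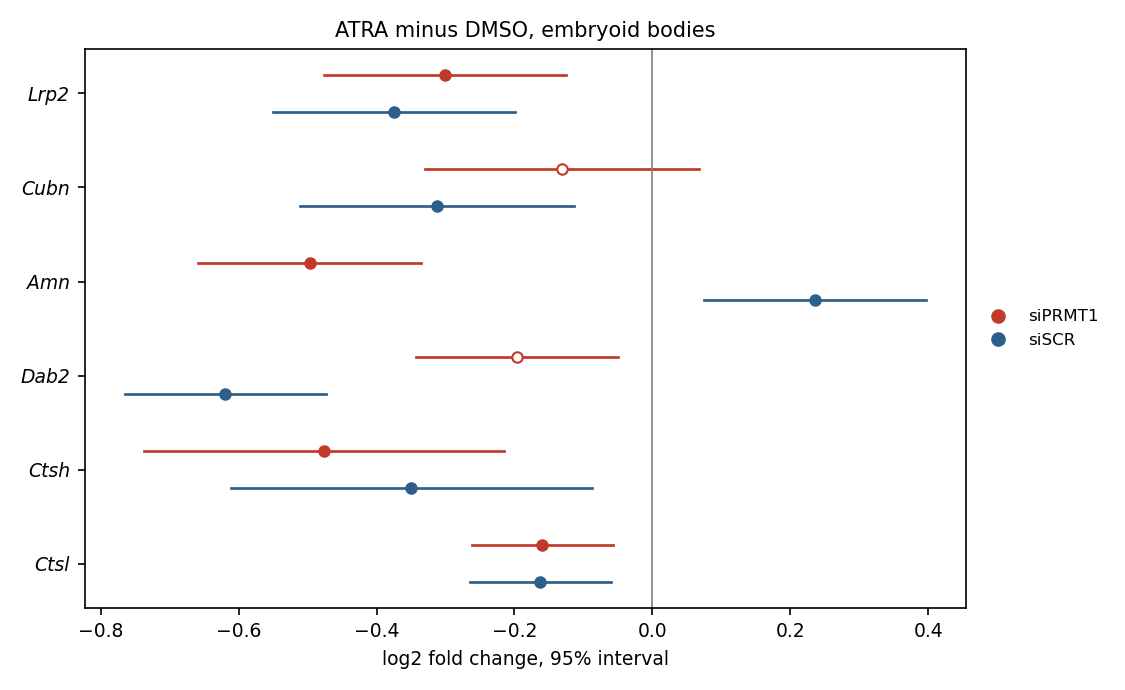
Log2 fold change of ATRA over DMSO in embryoid bodies for the 6 genes, siPRMT1 above siSCR, with 95% intervals; filled points were called and open ones were not. Amn lies at -0.50 in siPRMT1 and 0.24 in siSCR, and all other points are below 0.

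For DMSO against untreated day 4 embryoid bodies 0 of the 6 were called in siPRMT1 by limma, where 0.461% of all genes were called. Visceral endoderm markers did move there: 7 of 15 were called higher, against 0.306% of all genes, with a median of 0.27, among them Rbp4, the retinol carrier (1.43 ± 0.12, adjusted p = 5.81e-06), and Cer1 (1.33 ± 0.18, adjusted p = 0.000905). Before adjustment 2 of the 6 had a limma p under 0.05, Ctsh with a difference of 0.41 and Amn with one of 0.16. With array weights 2 were called, Ctsh (adjusted p = 0.00123) and Ctsl (adjusted p = 0.0331). In siSCR Ctsl (0.16 ± 0.05, adjusted p = 0.00915) and Amn (0.18 ± 0.08, adjusted p = 0.0453) were called higher and Cubn lower (-0.44 ± 0.10, adjusted p = 0.000488), where 61.1% of all genes were called, 30.8% higher and 30.3% lower. The siSCR DMSO arrays are among the 6 that stand apart, so the vehicle and what set those arrays apart cannot be told apart in this siSCR comparison. Lrp2 differed there by -0.07 and Dab2 by -0.09, and with arrays scaled to 1 SD both were called higher (0.31, adjusted p = 0.00596 for Lrp2 and 0.36, adjusted p = 0.000334 for Dab2), while Cubn was at -0.01 (adjusted p = 0.93). The Amn call was lost without any 1 of 11 arrays (adjusted p up to 0.242) and the Ctsl call without siSCR DMSO replicate 1 (adjusted p = 0.0518).

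Pga5 and Ttr each stood among the closest genes of 3 of the 6 in level across arrays. Likeness was Pearson r over the 24 arrays among 18240 genes, and is high for any gene whose level, like theirs, differs widely between embryoid bodies and undifferentiated cells. Pga5, a pepsinogen gene, was among the 3 closest for Lrp2 (0.980), Cubn (0.987) and Ctsh (0.991). Ttr, which encodes the carrier transthyretin, was among them for Lrp2 (0.978), Amn (0.977) and Ctsh (0.985). Nxf7, of a nuclear export factor family, was among them for Cubn (0.986) and Dab2 (0.991), and the claudin gene Cldn6 for Amn (0.971) and Ctsh (0.991).

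The remaining close genes were Myo6, a motor of coated-pit uptake, for Lrp2 (0.979), Slco2a1, a prostaglandin transporter, for Cubn (0.984) and Clic6 for Amn (0.972). Amot (0.980) and Retreg1 (0.979) stood beside Dab2. Ctsl had Rragb (0.957), Mia2 (0.949) and Dram1 (0.945), where r was lower than for the closest genes of the other five. Over the 18 arrays without the siSCR DMSO and ATRA groups r was 0.958 to 0.997 for these pairs. Over the 18 embryoid body arrays alone it was 0.763 to 0.972.

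Not all of the wider uptake and lysosome machinery followed. Of 14 measured genes of the LDL receptor family and its partners, 1 was called higher and 4 lower in siPRMT1 than siSCR at day 4, with a median of -0.04. Over all genes 11.4% were called higher and 7.01% lower, with a median of -0.02. Sorl1 (-0.98 ± 0.07, limma adjusted p = 2.31e-09) and Lrp1 (-0.92 ± 0.08, adjusted p = 3.11e-08), both endocytic or sorting receptors, and Vldlr (-0.39 ± 0.08, adjusted p = 0.00151), a lipoprotein receptor, were lower. Lrpap1, the chaperone of these receptors, was higher (0.37 ± 0.06, adjusted p = 8.74e-05). As embryoid bodies formed, 4 of the 14 rose and 5 fell in siPRMT1, where 23.0% of all genes rose and 18.4% fell, so the rises were near the background. In siSCR 7 rose and 0 fell, where 14.5% of all genes rose and 13.7% fell. The list medians of these rises were -0.03 in siPRMT1 and 0.13 in siSCR, where Lrp2 rose by 4.18 and 3.46. In siPRMT1 against siSCR at day 4 Lrp2 was higher by 0.58, while the list median of -0.04 lay near that of all genes. The difference between Lrp2 and the list was not tested.

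Of 24 clathrin and recycling genes, 7 were called higher and 1 lower in siPRMT1 at day 4, against 11.4% and 7.01% of all genes. The median of the list was 0.07. Clcn5, a chloride transporter of endosomes, was higher (0.86 ± 0.07, limma adjusted p = 1.58e-08), as were Myo6 (0.50 ± 0.11, adjusted p = 0.00277), Ehd1, which acts in recycling (0.42 ± 0.06, adjusted p = 1.5e-05) and Rab5c, an early endosome GTPase (0.25 ± 0.05, adjusted p = 0.00283). In undifferentiated siPRMT1 cells Clcn5 was lower (-0.79 ± 0.07, adjusted p = 6.21e-08). At day 4 against undifferentiated cells 11 of the list rose and 1 fell in siPRMT1, against 23.0% and 18.4% of all genes. The rises were led by Myo6 (1.78 ± 0.11, adjusted p = 4.65e-11) and Clcn5 (1.57 ± 0.07, adjusted p = 1.34e-13). In siSCR 4 rose and 3 fell, shares near those of all genes (14.5% higher and 13.7% lower).

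Most other lysosomal cathepsins were also higher in siPRMT1 than siSCR at day 4. Of 13, 8 were called higher and 0 lower, against 11.4% and 7.01% of all genes, with a median of 0.28. They were led by Ctsc (0.72 ± 0.08, limma adjusted p = 1.64e-06), Ctsz (0.64 ± 0.06, adjusted p = 1.19e-07), Ctsf (0.63 ± 0.10, adjusted p = 8.92e-05) and Lgmn (0.41 ± 0.07, adjusted p = 0.000131). The 5 not called lay between -0.18 and 0.10. With embryoid body formation 7 rose and 2 fell in siPRMT1, against 23.0% and 18.4% of all genes. In siSCR 5 rose and 2 fell, against 14.5% and 13.7%, so the falls were near the background in both lines. Ctso fell in both lines, by 1.21 ± 0.13 in siPRMT1 (adjusted p = 3.05e-07) and by 1.16 ± 0.13 in siSCR (adjusted p = 6.52e-07). Of 20 genes of lysosomal membrane, sorting and hydrolases, 6 were higher and 0 lower in siPRMT1 at day 4, against the same 11.4% and 7.01%. Among the 6 were the proton pump subunit Atp6v0a1 (0.58 ± 0.06, adjusted p = 8.72e-07) and the lipase Lipa (0.42 ± 0.07, adjusted p = 0.000262). Of 6 measured placental cathepsins and 5 cathepsin inhibitors 0 were called there by limma, and 0 and 1 of them had an unadjusted p under 0.05.

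Most endoderm markers rose beside the 6 genes. Of 15 measured visceral endoderm markers 14 were called higher at day 4 than in undifferentiated cells in siPRMT1, with a median of 1.17, and 11 in siSCR, with a median of 0.56. Of all genes 23.0% were called higher in siPRMT1 and 14.5% in siSCR. Of 10 parietal endoderm markers, 10 rose in siPRMT1 and 8 in siSCR, so RNA from visceral and from parietal endoderm cannot be told apart here. In siSCR 1 marker of each list was called lower, where 13.7% of all genes were. In siPRMT1 0 of either list were, against 18.4%. In siPRMT1 against siSCR at day 4, 13 visceral markers were called higher, with a median of 0.69, and 9 parietal ones, with a median of 0.70. Of all genes 11.4% were called higher. The mean level of the visceral list was 9.50 to 9.66 in siPRMT1 day 4 arrays and 8.71 to 8.91 in siSCR. Ttr averaged 11.28 ± 0.06 (SD, n = 3) in siPRMT1 and 9.95 ± 0.24 in siSCR at day 4, and Afp, the classic yolk sac marker, averaged 7.08 ± 0.08 in siPRMT1 and 6.76 ± 0.13 in siSCR, a difference that was not called (0.32, limma adjusted p = 0.146). With DMSO and with ATRA 13 of the 15 visceral markers were called higher in siPRMT1 than siSCR, with medians of 1.24 and 1.05. Of all genes 31.3% and 32.2% were called higher there, and both comparisons use the 6 siSCR arrays that stand apart. Of other cell types at day 4, 2 of 10 trophectoderm markers were called higher and 1 lower in siPRMT1, and 0 of 8 blood and macrophage markers higher and 1 lower. Over all genes 11.4% were higher and 7.01% lower, so these counts were near the background. Pluripotency markers moved the other way from the 6 genes, with a median of -0.25 at day 4. Of 10, 5 were called lower in siPRMT1 than siSCR and 0 higher, against 7.01% and 11.4% of all genes. Among them were Prdm14 (-0.60 ± 0.07, limma adjusted p = 2.75e-06) and Klf2 (-0.42 ± 0.07, adjusted p = 0.000133), while the defining marker Pou5f1 averaged 13.21 in siPRMT1 and 13.18 in siSCR and was not called. The mean level of this list was 11.56 to 11.58 in siPRMT1 day 4 arrays and 11.77 to 11.85 in siSCR. As embryoid bodies formed, 7 were called lower and 0 higher in siPRMT1, against 18.4% and 23.0% of all genes. In siSCR 2 were called lower and 3 higher, against 13.7% and 14.5%. The difference between the lines was called lower for 6 and higher for 0, against 8.83% and 15.0%. The part of endoderm or pluripotent cells in the results for the 6 genes was not tested.

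**Figure D5:**
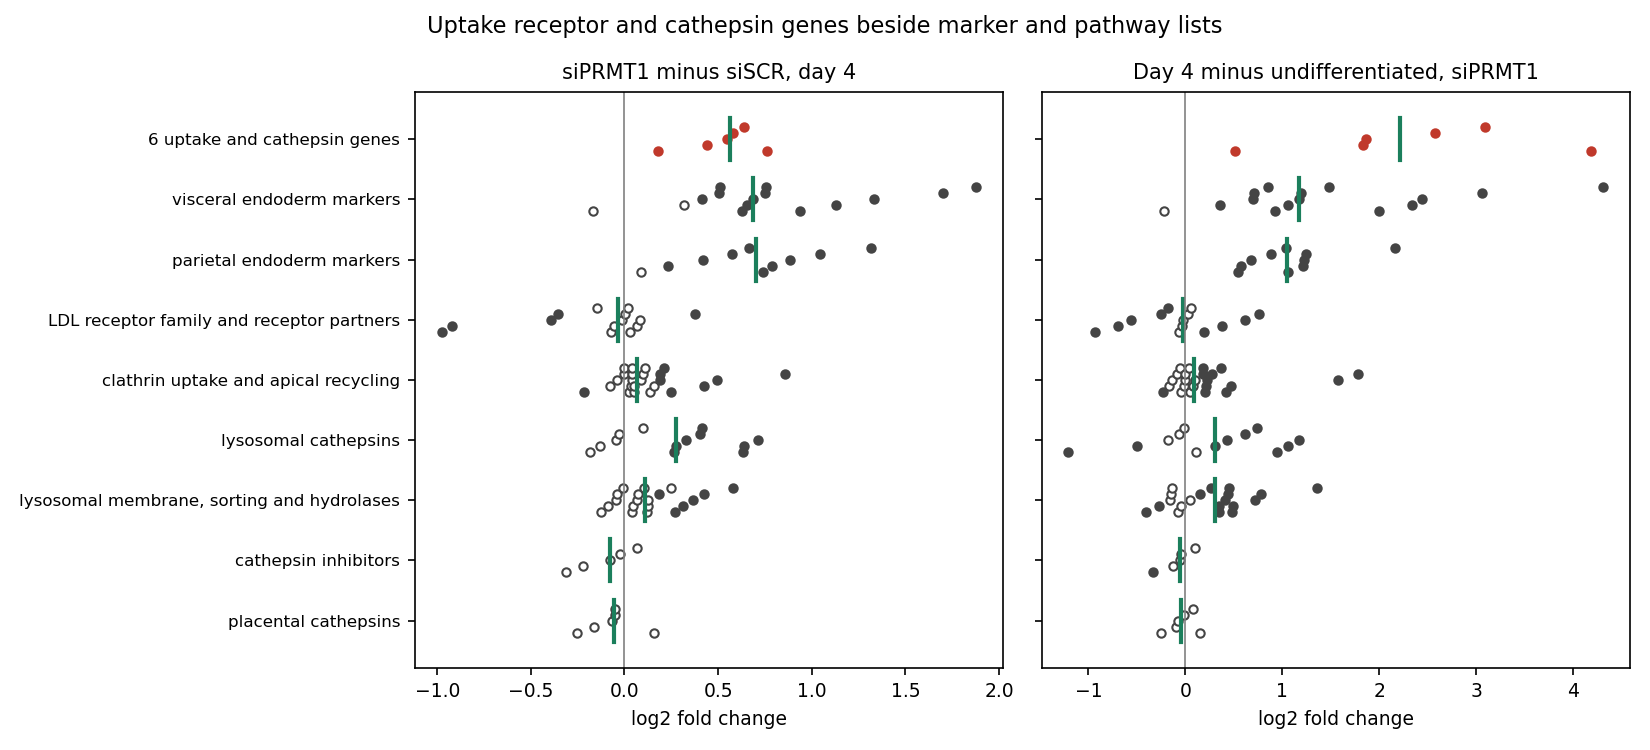
Log2 fold change of each measured gene of a list, left for siPRMT1 over siSCR at day 4 and right for day 4 over undifferentiated siPRMT1 cells, with a bar at the median; filled points were called and open ones were not. At day 4 the median is 0.56 for the 6 uptake and cathepsin genes, 0.69 for visceral endoderm markers and -0.04 for the LDL receptor family.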

How the data were processed

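Total RNA of 24 samples was measured on Affymetrix arrays, from biotinylated cDNA made of 300 ng each per the labels' protocols. The deposited table holds 1 value per probe set and array, read as log2 from its range. The authors' summary and normalization method is not stated in the sources used, and no detection calls were used. Of 35556 probe sets 21789 had 1 gene symbol, 1621 several and 12146 none, and only the first kind was tested, with the brightest set per gene. No arrays were identical.

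Differences were fitted in R 4.3.3 with limma 3.58.1, as 8 group means with 16 residual degrees of freedom and Benjamini-Hochberg adjustment over 19938 genes. The method was tested on simulated data with changes in 1 group only and no arrays that stand apart. That test therefore does not cover comparisons with the siSCR arrays of DMSO and ATRA. The 6 genes and all lists were chosen with earlier results of these data known. Named genes were the 6, the 3 closest to each by Pearson r (leaving out predicted genes, microRNAs and small nucleolar RNAs), and up to 4 called genes per list with the largest change. Alternatives were a replicate block, other samples in the fit, quantile normalization, centring, scaling to 1 SD, a filter on the dimmest 25% of genes, the mean of probe sets, another variance model, array weights, and leaving out arrays. Promoters and start sites are RefSeq's.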

Additional observations from a re-analysis of the deposited data

Results flagged for a closer look

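The rise at day 4 was larger in siPRMT1 than in siSCR for 4 of the 6 genes by an interaction test in limma. The difference of the log2 changes was 0.72 for Lrp2, 0.42 for Amn, 0.51 for Dab2 and 0.35 for Ctsl. The response to ATRA also differed between the lines, by -0.73 for Amn and by 0.42 for Dab2. Each was singled out because the test of the difference between the lines passed the threshold. The ATRA test uses the 6 siSCR arrays that stand apart. Its Dab2 call was lost in limma with only the groups compared (adjusted p = 0.147), with the mean of probe sets (adjusted p = 0.367) and without any 1 of 4 arrays. At day 4 the calls of Amn and Ctsl were lost with arrays scaled to 1 SD.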

How the results depend on the processing

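Over all alternatives, 2258 of the gene effects kept direction and side of the threshold, 113 lost the call, 7 gained one and 40 changed sign. The replicate numbers did not pair the samples: of 30 same-numbered pairs 5 had deviations that correlated over 0.1, with r of -0.502 to 0.508, and 7 correlated best with their own number. With a replicate block the only change was Amn for DMSO against untreated in siSCR (0.18, adjusted p = 0.0574). Unless a cause is named, the cause was not tested.

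Array weights gave 7218 called genes for the knockdown in undifferentiated cells, 6106 at day 4, 8969 for embryoid body formation in siSCR, 7688 for its difference between the lines, 7640 for ATRA in siPRMT1, 1567 for ATRA in siSCR and 2536 for DMSO against untreated in siPRMT1. That last comparison had 92 calls as reported, 56 with 1 SD scaling, 145 with a trend and robust variance and 286 when the 6 siSCR arrays given DMSO or ATRA were left out. With only the groups compared, which uses fewer arrays, 544 genes were called for ATRA in siSCR and 135 for the ATRA difference. Of the 6 genes this left 2 called in undifferentiated cells, 1 for ATRA in siSCR, 1 for the ATRA difference and 1 for DMSO against untreated in siSCR. Scaling to 1 SD left 2 for the day 4 difference and 2 for ATRA in siPRMT1, quantile normalization 3 and array weights 2 for ATRA in siSCR, and the mean of probe sets 1 for the ATRA difference. Array weights gave 2 for DMSO against untreated in siPRMT1.

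Signs changed as follows. With 1 SD scaling, Ctsl in siPRMT1 against siSCR was -0.44 with DMSO and -0.52 with ATRA, Dab2 in undifferentiated cells 0.0081, Ctsh for the day 4 difference -0.0534, Ctsl for the ATRA difference -0.0723, and Lrp2 0.31 and Dab2 0.36 for DMSO against untreated in siSCR. Amn in siPRMT1 against siSCR with ATRA was -0.30 after quantile normalization, -0.0639 after centring, -0.33 after 1 SD scaling and -0.0241 with array weights. Quantile normalization gave -0.022 for Lrp2 and -0.011 for Ctsl in the ATRA difference and 0.0739 for Lrp2 in DMSO against untreated in siSCR. Centring gave 0.0268 for Lrp2 and 0.0073 for Dab2 there, and -0.0072 for Ctsh in the day 4 difference. The mean of probe sets gave Dab2 0.0655 in undifferentiated cells, -0.0537 for DMSO against untreated in siPRMT1 and 0.0178 in siSCR. Array weights gave Ctsh -0.075 for the day 4 difference and 0.005 for the ATRA difference, and Lrp2 -0.0065 for DMSO against untreated in siPRMT1.

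Leaving out 1 array at a time, called genes ranged over 304 to 897 for the ATRA difference and 29 to 132 for DMSO against untreated in siPRMT1. Calls among the 6 ranged over 2 to 4 in undifferentiated cells, 1 to 5 for ATRA in siPRMT1, 2 to 6 for ATRA in siSCR, 1 to 2 for the ATRA difference and 2 to 3 for DMSO against untreated in siSCR. Signs changed within these ranges: Amn in siPRMT1 against siSCR with ATRA -0.0594 to 0.0358, Ctsh day 4 difference -0.0507 to 0.18, ATRA differences -0.0248 to 0.13 for Lrp2, -0.23 to 0.0408 for Ctsh and -0.0304 to 0.0427 for Ctsl, and DMSO against untreated -0.0144 to 0.0271 for Lrp2 and -0.002 to 0.0453 for Cubn in siPRMT1 and -0.02 to 0.0926 for Ctsh in siSCR.

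The share of called genes that were higher moved by over 10 points with scaling in most comparisons. For the knockdown it was 40.6% in undifferentiated cells, 58.8% after centring and 62.5% with 1 SD scaling. At day 4 it was 61.9%, 51.2% after quantile normalization and 50% with 1 SD scaling, and with DMSO 47.5% and 36.9% with 1 SD scaling. For embryoid body formation in siSCR it was 51.3%, 66.1% after centring and 64.2% with 1 SD scaling, and for the difference between the lines 63.0%, 52.1% after quantile normalization, 48.6% and 41.6%. With ATRA it was 50.5% in siPRMT1 and 35.1% after centring, and 47.8% in siSCR, 27.4% after centring and 34.8% with 1 SD scaling. For DMSO against untreated it was 66.3% in siPRMT1, 76.5% after quantile normalization, 82.4% after centring and 89.3% with 1 SD scaling, and 50.4% in siSCR, 62% after centring and 63.2% with 1 SD scaling.

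The 3 arrays per group limit all comparisons, levels near background were not separated, and the arrays carry no detection calls in the sources used here. Bulk RNA does not show which cells hold it.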
